A study of Mus musculus with 9 samples.

Results

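The microRNAs of the unmanipulated mouse left ventricle were described from the 3 non-transgenic libraries (NTG, replicates 0, 1 and 2) among the 9 small-RNA libraries of the series. The libraries were taken by their label and by their raw count columns, and no value of another library was used. Each was made from total RNA of left ventricle of male C57BL/6J mice, 6 months of age, that carry no transgene and received no treatment named in the labels. The other 6 libraries, 3 of the CaNrf2-High and 3 of the CaNrf2-Low transgenic line, are not analysed here. The labels do not say whether the 3 libraries came from separate animals, so the spread given below is that between these samples and may be technical. The left ventricle is a mixed tissue, and in a bulk sample fewer cells of a type and less RNA per cell cannot be told apart.

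A microRNA (miRNA) is cut from a hairpin transcript, first by Drosha in the nucleus and then by Dicer in the cytoplasm. The resulting duplex has a strand from the 5′ side of the hairpin (5p) and a strand from the 3′ side (3p). As a rule 1 strand is kept by an Argonaute protein, and bases 2 to 8 of that strand, the seed, pair with target messages. MiRNAs that share a seed can share targets and are grouped as a family. The heart is known for miRNAs that lie inside myosin genes (miR-208a, miR-208b and miR-499), for the muscle miRNAs miR-1 and miR-133, and for miRNAs of its vessels, of which endothelial miR-126 and smooth-muscle miR-143 and miR-145 are the best studied.

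The sequences below carry the results that follow and are printed 5′ to 3′ from RefSeq (build GRCm38.p6). The 2 most abundant entries of the table lie on opposite strands of the same place on chromosome 2, and their capitals mark the run of 19 bases in which each is the reverse complement of the other. The 3p entry miR-126a-3p spans chr2:26591402-26591423 on the plus strand and miR-126b-5p spans chr2:26591399-26591420 on the minus strand. A second such pair, with a run of 20 bases, lies on chromosome 8 at chr8:84208839-84208860 (plus strand) and chr8:84208839-84208858 (minus strand).
miR-126a-3p: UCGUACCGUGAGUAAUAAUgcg
miR-126b-5p: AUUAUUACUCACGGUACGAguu
miR-24-2-5p: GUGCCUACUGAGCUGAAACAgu
miR-3074-2-3p: UGUUUCAGCUCAGUAGGCAC

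The next mature sequences belong to the leading seed families and to the cardiac myosin miRNAs, and their capitals mark the seed. Within a family the members printed together share all 7 seed bases and differ only outside the capitals.
miR-30a-5p: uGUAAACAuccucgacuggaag
miR-30e-5p: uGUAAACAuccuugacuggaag
miR-30c-5p: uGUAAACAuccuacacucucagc
miR-27b-3p: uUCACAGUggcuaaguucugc
miR-27a-3p: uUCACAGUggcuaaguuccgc
miR-99a-5p: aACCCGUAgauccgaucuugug
miR-100-5p: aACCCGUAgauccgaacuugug
miR-99b-5p: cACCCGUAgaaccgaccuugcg
let-7g-5p: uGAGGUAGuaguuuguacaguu
let-7i-5p: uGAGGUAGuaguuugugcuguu
let-7d-5p: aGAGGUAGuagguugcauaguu
let-7a-5p: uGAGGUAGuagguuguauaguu
let-7f-5p: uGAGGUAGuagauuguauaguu
miR-148a-3p: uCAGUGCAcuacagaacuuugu
miR-152-3p: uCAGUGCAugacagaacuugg
miR-22-3p: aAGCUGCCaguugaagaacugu
miR-21a-5p: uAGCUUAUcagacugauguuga
miR-29a-3p: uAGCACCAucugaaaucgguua
miR-499-5p: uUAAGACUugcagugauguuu
miR-208a-3p: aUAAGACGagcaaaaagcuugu
miR-208b-3p: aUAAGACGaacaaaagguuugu

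The last 3 sequences are whole hairpins, shown because they stand for the range of strand use described below: 5p almost alone (let-7g), 3p almost alone (miR-23a) and both strands close to each other (miR-132). Capitals mark the 5p and then the 3p mature sequence, with the loop between them in lower case. The hairpins lie at chr9:106178840-106178927 (plus strand, an intron of Wdr82), chr8:84208518-84208592 (plus strand) and chr11:75173682-75173747 (plus strand).
Mirlet7g: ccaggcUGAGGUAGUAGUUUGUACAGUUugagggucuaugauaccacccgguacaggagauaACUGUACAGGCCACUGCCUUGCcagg
Mir23a: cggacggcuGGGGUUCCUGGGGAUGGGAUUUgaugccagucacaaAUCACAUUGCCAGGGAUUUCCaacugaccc
Mir132: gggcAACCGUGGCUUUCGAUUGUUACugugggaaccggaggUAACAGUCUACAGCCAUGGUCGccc

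The NTG libraries held 7174891, 7811416 and 10132597 counts in replicates 0, 1 and 2. Abundance is given as CPM, the count of an entry per 1e+06 counts of its library, so 1 count equals 0.139, 0.128 and 0.0987 CPM. CPM is not divided by length. The mature sequences ranged from 18 to 26 bases with a median of 22. The table lists 621 mature miRNAs, of which 605 had a count above 0 in every library, 16 had a 0 in at least 1 library and 0 were at 0 in all 3. At least 10 counts in every library were found for 443 miRNAs and at least 100 counts for 264. No 2 libraries were alike within counting error: a chi-square test of their counts gave 347 per degree of freedom for replicates 0 and 1, 343 for 0 and 2, and 173 for 1 and 2, and all 3 were kept as replicates. Spearman's rho across the 443 miRNAs was 0.980, 0.980 and 0.986 for the same pairs, as a description across miRNAs, which are not independent replicates.

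In the counts as deposited, few entries dominated the ventricular miRNA pool. Every share depends on the library total, and so also on entries made from 2 hairpin genes, whose levels are uncertain as described below. The first 5 miRNAs held 51.6% ± 2.47 of all counts (SD, n = 3), the first 10 held 71.6% ± 1.30, the first 20 held 87.5% ± 0.608 and the first 100 held 98.6% ± 0.106. The first 2 were the miR-126 pair printed above, whose nearly equal counts both enter these shares and held 32.2% ± 3.13 together. By replicate the first 10 ranged from 70.2% to 72.7%. Counting error was small beside this: the widest 95% Clopper-Pearson interval had a half-width of 0.0331 percentage points, which covers counting error only. Reaching 50% of counts took 5 miRNAs, reaching 90% took 26 and reaching 99% took 121. Only 20 miRNAs averaged at least 10000 CPM. A further 36 miRNAs between 1000 and 10000 CPM held 9.05% of counts, and 89 between 100 and 1000 CPM held 2.83%. At the other end, 212 miRNAs averaged 1 to 10 CPM and 118 averaged under 1 CPM, and the last group held 0.00689% of counts. The median miRNA of the table stood at 7.48 CPM.

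**Figure D1:**
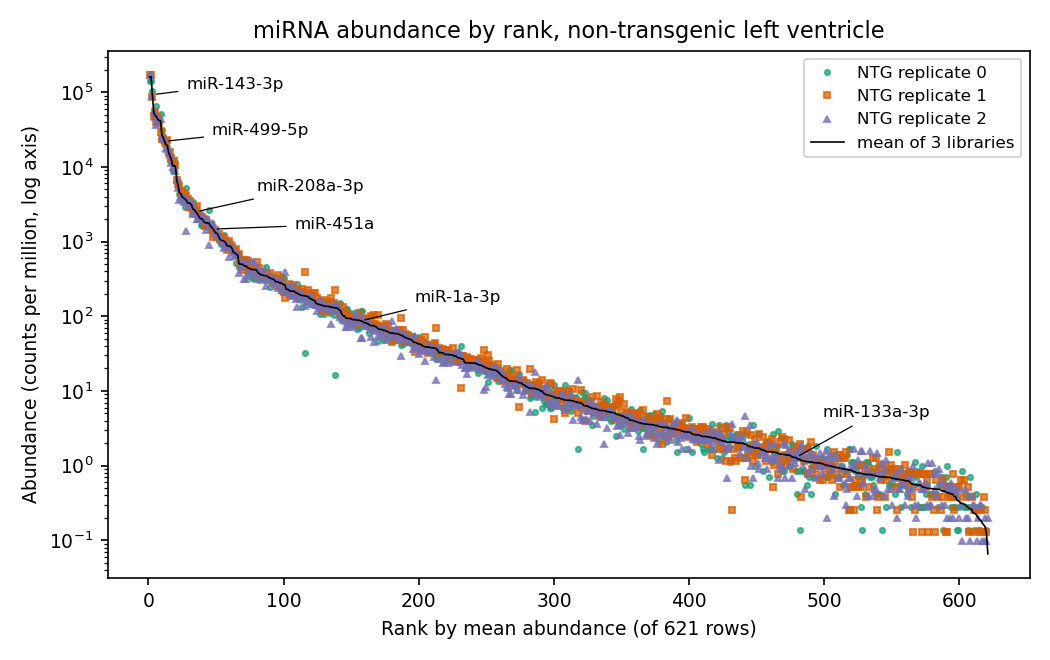
CPM (log axis) of each of the 621 miRNAs against its rank by mean, with 1 point per NTG library (values of 0 cannot be drawn on this axis). The curve falls over more than 6 powers of 10, with 20 miRNAs at or above 10000 CPM and a median of 7.48 CPM.

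The 2 leading entries were the miR-126 pair printed above. MiR-126 is the best known endothelial miRNA and lies in the endothelial gene Egfl7. The annotation places its hairpin at chr2:26591357-26591429, within an exon of an annotated Egfl7 transcript. MiR-126b-5p held 14.3%, 16.8% and 17.2% of counts in replicates 0, 1 and 2. MiR-126a-3p held the same 14.3%, 16.8% and 17.2%. Their counts differed by at most 74 in any library, so the table could not separate them. The same held for the other strands of the locus: miR-126b-3p averaged 10345 CPM and miR-126a-5p averaged 10332 CPM. All 4 entries together held 34.2% ± 3.38 of counts, with 30.3% in replicate 0 below 36.0% and 36.3% in replicates 1 and 2.

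The miR-126 pair was 1 of 19 pairs of entries whose counts were nearly the same in every library (log2 values within 0.03 of each other, mean count of at least 8). These 38 entries held 35.3% of counts, and in 12 of the 19 pairs every count was identical. The annotation showed 15 of the pairs on overlapping hairpins of opposite strands, and the 14 pairs with both sequences at hand held a reverse-complement run of 11 to 21 bases. MiR-24-2-5p and miR-3074-2-3p, printed above, had 1676, 2123 and 2228 CPM in both entries. Other pairs were miR-30e-3p with miR-30f, miR-374b-5p with miR-374c-3p, miR-142a-3p with miR-142b and miR-1a-3p with miR-1b-5p. Whether the counting used strand is not stated in the labels, and its part in these pairs was not tested. Counting each pair once raised every other share: miR-126a-3p then stood at 195583 CPM, miR-143-3p at 112393 CPM, miR-22-3p at 59766 CPM and miR-499-5p at 26711 CPM.

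Below the miR-126 pair came miR-143-3p, a miRNA that marks smooth muscle and pericytes. It had 102835, 85675 and 89485 CPM in replicates 0, 1 and 2 and lay below both leading entries in every library. MiR-145a-5p, made from the neighbouring hairpin on chromosome 18, averaged 3076 ± 245 CPM. MiR-378a-3p followed with 52847, 47361 and 56800 CPM. It lies in an intron of Ppargc1b, a coactivator gene of mitochondrial metabolism. MiR-22-3p, which is abundant in heart and skeletal muscle and studied in hypertrophy, had 46844, 54401 and 46316 CPM. The ranges of miR-378a-3p and miR-22-3p overlapped, so their order was not resolved.

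The miR-30 family, known from heart muscle and for repressing the matrix factor Ctgf, took 3 of the first 10 places. MiR-30a-5p had 64525, 39490 and 36201 CPM, so replicate 0 stood well above the other libraries. MiR-30d-5p had 51106, 29513 and 43890 CPM, with replicate 1 lowest. MiR-30e-5p had 31197, 23842 and 25925 CPM. All 3 were highest in replicate 0. MiR-27b-3p, of a cluster studied in vessel growth, averaged 43198 ± 2986 CPM, and miR-99a-5p, a member of a family that targets Mtor, averaged 41624 ± 2254 CPM. MiR-148a-3p closed the upper group with 24518 ± 1465 CPM.

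The next places were held by miR-499-5p (21990 ± 667 CPM), let-7g-5p (19782 ± 1708 CPM), miR-21a-5p (19428 ± 2897 CPM), miR-29a-3p (15469 ± 906 CPM), miR-27a-3p (14058 ± 2002 CPM) and let-7i-5p (12506 ± 971 CPM). MiR-21a is known for its induction in stressed cardiac fibroblasts, and miR-29a represses collagen messages. MiR-101a-3p was the twentieth entry, at 10197 CPM. Among the 19 neighbouring pairs of the first 20, the ranges of 14 pairs overlapped between libraries. The order was therefore resolved beyond the spread only at a few steps: below the miR-126 pair, below miR-143-3p, below miR-148a-3p, below miR-499-5p and below miR-21a-5p.

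The tissue label was checked against miRNAs of defined cell types. The 5 cardiomyocyte hairpins (miR-1a, miR-133a, miR-208a, miR-208b and miR-499) gave 11 entries that summed to 24435, 24799 and 25395 CPM, a coefficient of variation (CV, the SD over the mean) of 1.95%. MiR-499-5p made 88.4% of that sum. It lies in an intron of Myh7b and had 21687, 21529 and 22755 CPM. MiR-208a-3p, in an intron of Myh6, the main adult ventricular myosin gene of the mouse, had 2485, 2657 and 2361 CPM. MiR-208b-3p, in an intron of the fetal and slow myosin gene Myh7, had 31.9, 390 and 138 CPM, which spans 12.2-fold between replicates 1 and 0. The myosin miRNAs were thus present in each library, with miR-208a-3p above miR-208b-3p in all 3.

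Other well known muscle miRNAs stood low in the table. MiR-1a-3p had 116, 91.7 and 51.9 CPM and ranked 157. MiR-133a-3p had 0.836, 1.54 and 1.48 CPM and ranked 479, below miR-133a-5p at 18.6 CPM. Both miR-1a-3p and miR-133a-3p are made from 2 hairpin genes in the genome. The table held 21 entries made from 2 hairpin genes, and together they held 0.280% of counts, against 99.6% for the 593 entries made from 1 hairpin gene. The median level of the 21 was 16.3 CPM, against 7.23 CPM for the 593, and the highest was miR-92a-3p at 1297 CPM.

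For 18 of those 21 entries the opposite strand of the hairpins was also listed, and in 11 of the 18 the opposite strand was higher. Wherever both strands of a hairpin are listed, 1 of them lies below its opposite strand by construction. The count of 11 was not compared with other entries, so it does not by itself set entries made from 2 hairpins apart. MiR-133a-5p and miR-133a-3p are both among the 18 and are the opposite strand of each other, so 1 of them is among the 11 by construction. MiR-30c-5p averaged 2.81 CPM, against 431 CPM for miR-30c-1-3p and miR-30c-2-3p together. MiR-181a-5p averaged 0.488 CPM, against 197 CPM for its opposite strands. MiR-29b-3p averaged 1.36 CPM, against 25.9 CPM, and miR-125b-5p averaged 72.6 CPM, against 335 CPM. The let-7 members made from 2 hairpins were low as well, with let-7c-5p at 189 CPM, let-7a-5p at 75.1 CPM and let-7f-5p at 62.4 CPM. MiR-16-5p stood at 30.8 CPM, miR-26a-5p at 6.29 CPM and miR-103-3p at 1.65 CPM. The labels do not state the treatment of reads with more than 1 place in the genome, and its part in these levels was not tested. Levels of miRNAs made from 2 hairpins are therefore uncertain, miR-1a-3p and miR-133a-3p included. The cardiomyocyte sum given above, which includes both, is uncertain too.

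Among the listed markers of the other cell types of the ventricle, those of vessels had far more counts than those of fibroblasts. The endothelial list (miR-126a, miR-221, miR-222 and miR-92a, 8 entries) summed to 154250.0, 182737 and 184168 CPM, of which 92.6% was miR-126a-3p. The smooth-muscle and pericyte list (miR-143 and miR-145a, 4 entries) summed to 108006, 90235 and 94784 CPM. The fibroblast list (miR-199a, miR-199b and miR-214, 4 entries) summed to 743, 965 and 673 CPM. Its miR-199a-3p, at 16.3 CPM, is made from 2 hairpin genes, so its level and the fibroblast sum are uncertain. MiR-92a-3p of the endothelial list (1297 CPM) is made from 2 hairpin genes too. The sums of the lists add only the listed miRNAs, so they do not measure shares of cells.

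Blood miRNAs were present at low levels. The erythroid list (miR-451a and miR-144, 3 entries) summed to 2132, 1699 and 2302 CPM. MiR-451a, which is cut by Ago2 without Dicer in red cell precursors, gave 1517, 1138 and 1756 CPM of that. The lymphocyte list (miR-150 and miR-155) summed to 1087, 1148 and 1138 CPM, with miR-150-5p at 800 ± 53.8 CPM. The myeloid and leukocyte list (miR-223 and miR-142a) summed to 578, 655 and 509 CPM. MiR-486b-5p, known from muscle and red cells, averaged 472 CPM and shared its counts with miR-486a-3p.

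Markers of tissues outside the heart differed in level. Liver-specific miR-122-5p had 2.51, 7.81 and 4.34 CPM, islet miR-375-3p had 0.697, 0.768 and 0.790 CPM, and skeletal-muscle miR-206-3p had 4.74, 6.40 and 3.36 CPM. The endocrine list (miR-375 and miR-7a, 3 entries) summed to 22.9, 22.1 and 24.5 CPM, of which 82.6% was miR-7a-1-3p. The neural list summed to 975, 800 and 934 CPM, of which 98.1% was miR-128-3p, and its miR-124 and miR-9 were not analysed here. The epithelial list summed to 382, 314 and 359 CPM, of which 79.9% was miR-203-3p.

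**Figure D2:**
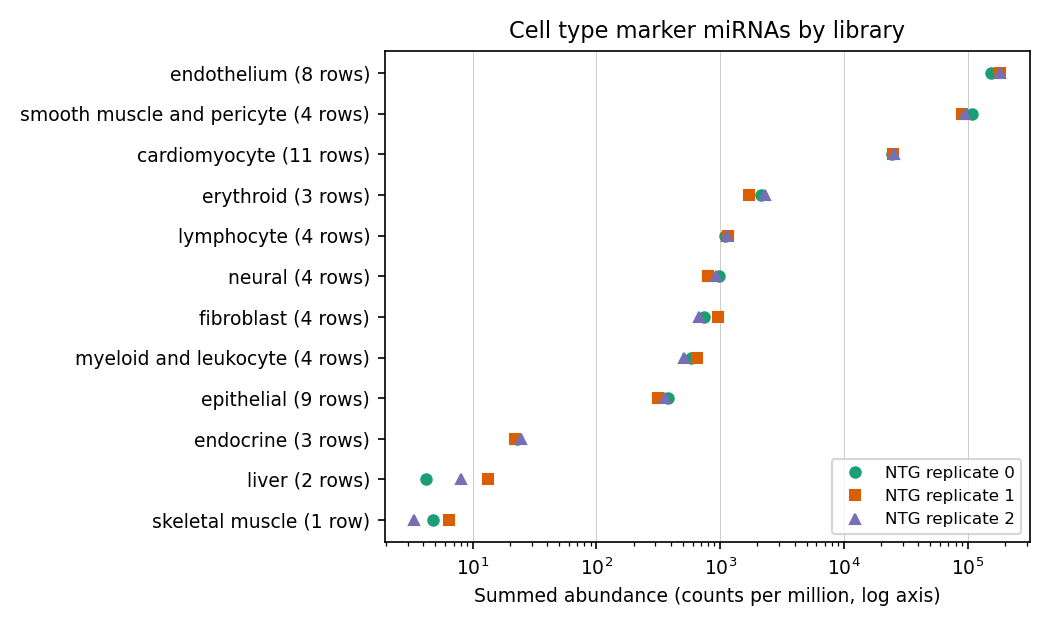
Summed CPM (log axis) of the miRNAs of each cell type list, 1 point per NTG library. The endothelial list lies highest (154250.0 to 184168 CPM), followed by smooth muscle and pericyte (90235 to 108006 CPM) and cardiomyocyte (24435 to 25395 CPM), while skeletal-muscle and liver markers lie below 15 CPM. Several lists, the cardiomyocyte list among them, include miRNAs made from 2 hairpin genes, so their sums are uncertain.

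Families were formed by the seed of the RefSeq mature sequence, which was at hand for 544 of the 621 entries, with 77.9% of counts. An entry with no sequence at hand (miR-143-3p, miR-378a-3p and miR-30d-5p among the first 10) stands as a family of its own. The 544 entries with a sequence gave 463 families, 412 of them with 1 entry. Ranked together with the entries that stand alone, the first 10 families held 77.7% of counts. The 51 families of 2 or more entries held 30.4% of counts in 132 entries.

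The family with the seed GUAAACA (miR-30a-5p, miR-30e-5p, miR-30c-5p and miR-384-5p) held 9.57%, 6.33% and 6.21% of counts in replicates 0, 1 and 2, of which miR-30a-5p gave 63.4%. Replicate 0 stood apart from the others. MiR-30d-5p had no sequence at hand and is not counted in the GUAAACA family. Taken by name, with all 12 miR-30 entries, the miR-30 family held 12.4% ± 2.81, and miR-30a-5p gave 37.7% of it. The UCACAGU family (miR-27b-3p and miR-27a-3p) held 5.73% ± 0.494, and 75.4% of it was miR-27b-3p. The ACCCGUA family (miR-99a-5p, miR-100-5p and miR-99b-5p) held 4.79% ± 0.187, and 86.9% of it was miR-99a-5p.

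The let-7 seed GAGGUAG had the most members, 9 entries, and held 4.11% ± 0.323. Let-7 miRNAs mark differentiated tissue and are held back by Lin28 in early development. Let-7g-5p gave 48.2% of the family, followed by let-7i-5p, let-7d-5p (4372 ± 286 CPM) and let-7b-5p (3314 ± 337 CPM). The CAGUGCA family (miR-148a-3p, miR-152-3p and miR-148b-3p) held 2.90% ± 0.160, and miR-148a-3p gave 84.7%. The AGCACCA family held 1.58% ± 0.0928, and miR-29a-3p gave 97.6%, while miR-29c-3p averaged 372 CPM. The myosin seed UAAGACG, shared by miR-208a-3p and miR-208b-3p, held 0.269% ± 0.0312. MiR-499-5p has the seed UAAGACU and held 2.20% on its own.

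A single entry led most families. Over the 18 families with at least 2 entries and at least 0.1% of counts, the leading entry gave a median of 82.8% of its family. This lead is that of the counts as they stand. Members made from 2 hairpin genes, such as let-7a-5p, miR-29b-3p and miR-30c-5p, have uncertain levels. Entries with no sequence at hand, such as miR-30d-5p, are missing from their families. Families in which no entry led by far were the seed UUUCAGU, where miR-30a-3p gave 50%, the seed AUUGCAC, where miR-92a-3p gave 45.1%, and the seed AAAGUGC of the miR-17 group, where miR-20a-5p gave 41.9%. The 18 entries of the miR-17 to miR-92 clusters, studied in proliferation, summed to 4728, 4798 and 5187 CPM. The 57 entries of the imprinted Dlk1-Dio3 cluster on chromosome 12 summed to 1304, 1154 and 976 CPM. Of those, 12 averaged under 1 CPM, and miR-127-3p gave 24.0% of the sum.

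**Figure D3:**
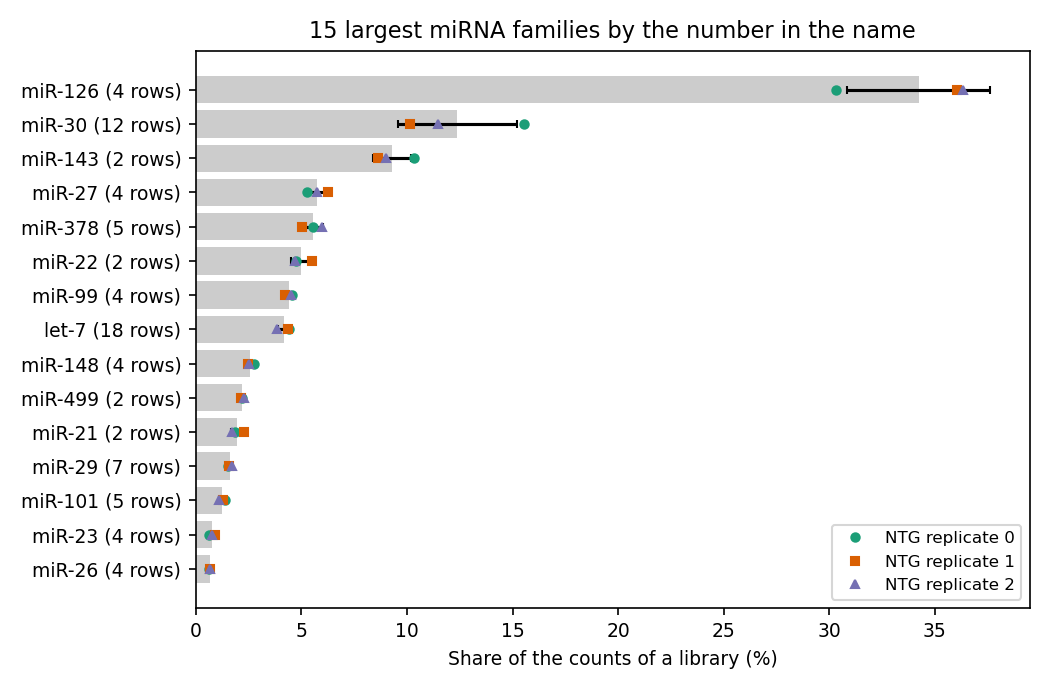
Share of counts (percent) of the leading families by the number in the miRNA name, with a bar for the mean of the 3 NTG libraries, an error bar for the SD and a point per library. The miR-126 entries (34.2%) and the miR-30 entries (12.4%) lead, and both spread more between libraries than miR-499 (2.20%).

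The 2 strands of a hairpin were compared where both were in the table, to ask which strand the ventricle holds and how strictly. Both strands were present for 171 hairpins, and the 165 with at least 10 counts of both together in every library were tested with edgeR's quasi-likelihood test within libraries (Benjamini-Hochberg adjusted p under 0.05 over the 165). The strands differed in 151 hairpins, which is 91.5% of those tested. The 5p strand was higher in 86 (52.1%) and the 3p strand in 65 (39.4%). In 155 hairpins the same strand was higher in all 3 libraries. The ratios below are log2 of 5p over 3p CPM with 0.5 added to each count, as mean ± SD over the 3 libraries.

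Strand use was lopsided. The median absolute log2 ratio was 3.34, a 10.2-fold difference. Of the 165 hairpins, 83 had a ratio of at least 10-fold (47 with 5p and 36 with 3p higher), 33 of at least 100-fold (18 and 15) and 9 of at least 1000-fold. The strands were within 2-fold in 29. The median SD of the log2 ratio between libraries was 0.26, so most ratios were far larger than their spread. Summed over all 261 entries named 5p and 313 named 3p, the 5p strands held 47.5% ± 1.35 of counts and the 3p strands 51.9% ± 1.35. Without the miR-126 entries these were 46.2% ± 2.19 and 52.9% ± 2.15.

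The largest 5p excess was that of let-7g, whose hairpin is printed above. Let-7g-5p had 21298, 20117 and 17932 CPM, against 1.67, 4.35 and 2.47 CPM for let-7g-3p, a log2 ratio of 12.84 ± 0.71. MiR-21a followed at 12.74 ± 0.47, with 18487, 22679 and 17119 CPM for 5p, against 3.35, 3.71 and 1.68 CPM for 3p. Next were miR-149 (12.23 ± 0.93), miR-100 (11.95 ± 0.24) and miR-99a (11.95 ± 0.40). The cardiac miR-499 stood at 9.20 ± 0.58, with 21990 ± 667 CPM for 5p and 39.0 CPM for 3p. MiR-186, miR-30d, miR-20a and miR-125a had ratios of 8.92 to 9.13. The strands of each of these hairpins were separated by more than 100-fold in every library.

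The largest 3p excess was that of miR-23a. MiR-23a-5p had 1.25, 1.15 and 0.790 CPM, against 2899, 4462 and 3908 CPM for miR-23a-3p, a log2 ratio of -11.71 ± 0.56. MiR-101b and miR-101a, whose 3p strands have been shown to target Ezh2, stood at -11.56 ± 0.68 and -11.15 ± 0.23. MiR-27b stood at -9.99 with an SD of only 0.02, with 40.1, 44.8 and 41.9 CPM for 5p, against 40431, 46364 and 42800.2 CPM for 3p. MiR-23b, miR-148a, miR-29a, miR-25 and miR-203 lay between -9.72 and -8.59. MiR-143 stood at -7.91 ± 0.23. For each of the 20 hairpins with the largest or smallest ratios, the adjusted p was at most 1.11e-12 (edgeR).

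Both strands were close in few hairpins. Those described first had at least 100 counts of both strands together in every library. MiR-455-5p had 165, 227 and 158 CPM, against 159, 192 and 162 CPM for miR-455-3p, a log2 ratio of 0.09 ± 0.14 (adjusted p = 0.493, edgeR). For miR-132, a miRNA of Creb signalling in neurons, the 5p strand had 47.9, 74.1 and 72.0 CPM, against 60.3, 94.3 and 80.0 CPM for 3p. Its log2 ratio was -0.28 ± 0.11 (adjusted p = 0.0597, edgeR). The other 8 hairpins nearest to equal strands at that minimum were miR-219c, miR-301a, miR-335, miR-362, miR-3065, miR-338, miR-106b and miR-671. Below the minimum, miR-382 (0.02 ± 0.69), miR-324 (0.08 ± 0.16) and miR-877 (-0.15 ± 0.70) were nearer to equal than several of these, on 95, 83 and 57 counts in their shallowest library. MiR-3065 and miR-338 were the mirror image of each other, since they are overlapping hairpins that share their counts. The smallest ratio that passed the test was 0.42 in absolute log2, and the largest that did not was 0.36.

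**Figure D4:**
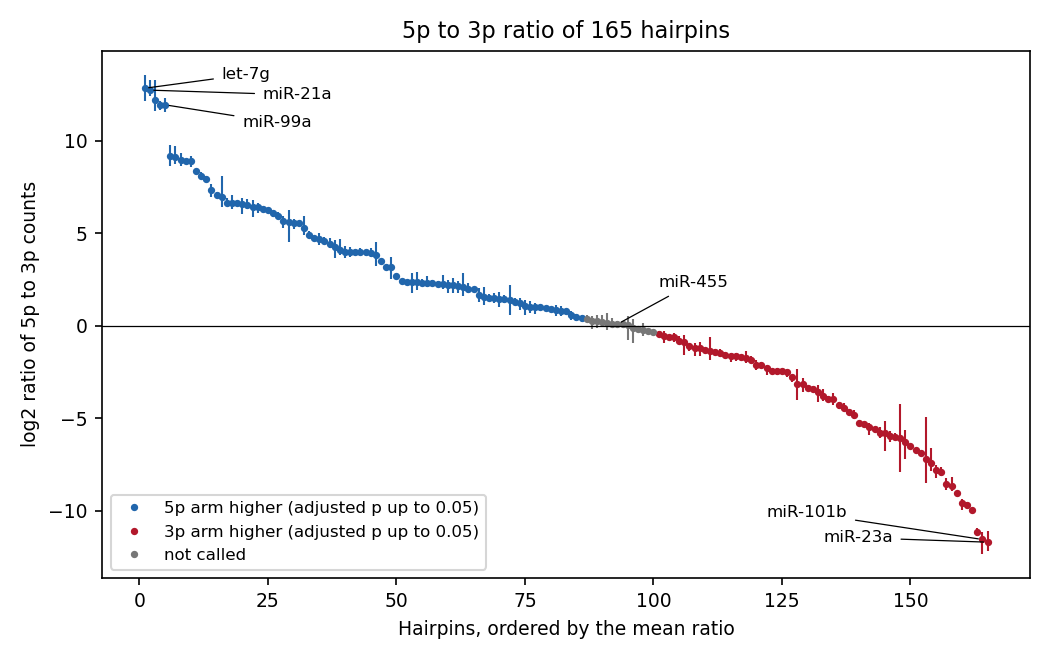
Log2 ratio of 5p over 3p CPM for each of the 165 tested hairpins, ordered by the ratio, with the mean of the 3 NTG libraries as a point and the lowest to highest library as a line. The ratios run from 12.84 (let-7g) to -11.71 (miR-23a), and 29 hairpins lie within 2-fold of equal strands.

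Strand use was compared between members of the let-7 and miR-30 families. In the 5 let-7 hairpins tested (let-7b, let-7d, let-7e, let-7g and let-7i) the 5p strand was higher, with log2 ratios of 2.71 to 12.84. In the 4 miR-30 hairpins tested (miR-30a, miR-30b, miR-30d and miR-30e) the 5p strand was higher too, with ratios of 3.92 to 8.99. The size of the ratio thus spread over more than 1000-fold within let-7. Let-7d lay lowest, with let-7d-3p at 668 CPM. The members made from 2 hairpin genes were not in this test, and some went the other way: miR-30c-5p lay below its opposite strands, as given above, and let-7f-5p averaged 62.4 CPM, against 81.0 CPM for its opposite strands. Hairpins with a shared number could also differ in their higher strand (chosen after their values were seen). MiR-130b stood at 2.01 and miR-130a at -5.95, miR-193a at 2.25 and miR-193b at -3.58, and miR-34c at 5.30 and miR-34b at -1.23, and each of these 6 passed the test. MiR-130b, miR-193a and miR-34b rested on only 11, 22 and 34 counts in their shallowest library.

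Among the cardiac miRNAs strand use differed. MiR-208a stood at -6.00 ± 0.18, miR-378a at -4.83 ± 0.24 and miR-22 at -6.86 ± 0.11, all with 3p higher. MiR-208b had the largest SD of any hairpin tested, 1.99, around a ratio of -7.24. Its 5p strand averaged 0.798 CPM and rested on 7, 8 and 4 counts. MiR-145a used both strands, with 3076 CPM for 5p and 1549 CPM for 3p (0.99 ± 0.03), unlike its neighbour miR-143. For miR-126, the annotated 3p strand of miR-126a gave -3.97 ± 0.15 and the 5p strand of miR-126b gave 3.97 ± 0.15 from the same counts. MiR-133a, whose entries are each made from 2 hairpins, stood at 3.82 ± 0.67. Leaving out hairpins with a near-identical entry or several copies by name left 76 with 5p higher and 60 with 3p higher.

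The higher and the lower strand differed in their first base. For the 137 tested hairpins with both sequences at hand, U was the first base of 69 higher strands and 28 lower strands, and C of 19 higher and 45 lower strands. A was the first base of 37 higher and 41 lower strands, and G of 12 and 23. An Argonaute pocket that holds the first base is known to favour U and A, but its part in these counts was not tested. The count held on both sides of the hairpin: where 5p was higher (82 hairpins), U began 43 higher and 18 lower strands, and where 3p was higher (55 hairpins), 26 and 10. Among the 66 hairpins with a ratio of at least 10-fold, U began 38 higher strands and 8 lower strands. These counts are a description, since the strands were ordered by their level and many share a family.

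Weighted by abundance, entries that begin with U were 41.9% of the 544 entries and held 59.6% ± 1.62 of their counts. Leaving out miR-126, whose 2 leading entries begin with U and A, gave 67.8% ± 1.59. Of the 16 sequences at hand among the first 20 entries, 12 began with U, 3 with A and 1 with C. Content of G and C was lower in the abundant entries, with a median of 45.5% for the 44 entries of at least 1000 CPM and 50% for the 291 entries under 10 CPM. It had a median of 45.5% in the higher strands and 50% in the lower strands of the hairpins.

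Neighbouring hairpins differed in the level of their miRNAs. Hairpins no more than 10 kb apart on the same strand formed 47 clusters, whose 221 entries held 33.3% ± 1.71 of counts. The cluster of miR-143 and miR-145a (chr18:61647825-61649258) held 9.77%, and the leading strands of its hairpins differed 30.1-fold. The cluster of miR-23b, miR-27b and miR-24-1 (chr13:63300484-63301275) held 4.73%, with 43198 CPM for miR-27b-3p and 128 CPM for miR-24-1-5p. Its counterpart miR-23a, miR-27a and miR-24-2 (chr8:84208518-84208921) had 14058 CPM for miR-27a-3p and 2009 CPM for miR-24-2-5p. The 3p strand of both miR-24 hairpins was not analysed here, so the 5p strand is the one given whether or not it is the higher. The level is per mature miRNA and not per transcript, so transcription and processing of a cluster cannot be told apart.

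By position, 166 entries whose hairpin overlaps an exon of a gene on the same strand held 38.2% ± 1.40 of counts, 250 intronic entries held 21.5% ± 0.805 and 177 entries with no gene on the same strand held 39.8% ± 0.689. These are the 593 entries made from 1 hairpin gene, placed with GENCODE M21 on GRCm38. The miR-126a and miR-126b entries were counted separately here, so the counts they share enter these shares more than once. Their hairpins lie on opposite strands, so the shared counts can fall in different classes of position. Chromosome 2, with miR-126 and miR-499, held 36.7% of counts in 36 entries, and its 4 miR-126 entries alone held 34.2%. Chromosome 18, with miR-143, miR-145a and miR-378a, held 15.2% in 20 entries, while the 71 entries of chromosome X held 0.536%. Introns with abundant miRNAs were those of Ppargc1b (miR-378a), Nfyc (miR-30e), Myh7b (miR-499), Wdr82 (let-7g) and Ctdsp1 (miR-26b, with miR-26b-5p at 6580 ± 299.5 CPM).

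The spread between the NTG libraries was larger than counting error for most miRNAs. Over the 443 miRNAs with at least 10 counts in every library the median CV was 15.7%, against 6.27% from counting alone, and 263 had a CV more than 2 times that of counting. The common biological coefficient of variation of edgeR over the same libraries was 22.2%. The median CV was 9.95% at or above 1000 CPM, 13.4% between 100 and 1000, 14.0% between 10 and 100, 28.5% between 1 and 10, and 46.9% under 1 CPM. The matching values from counting alone were 0.601%, 2.13%, 6.19%, 20.6% and 44.7%. The spread was thus close to that of counting alone below 1 CPM and far above it from 1000 CPM upwards.

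**Figure D5:**
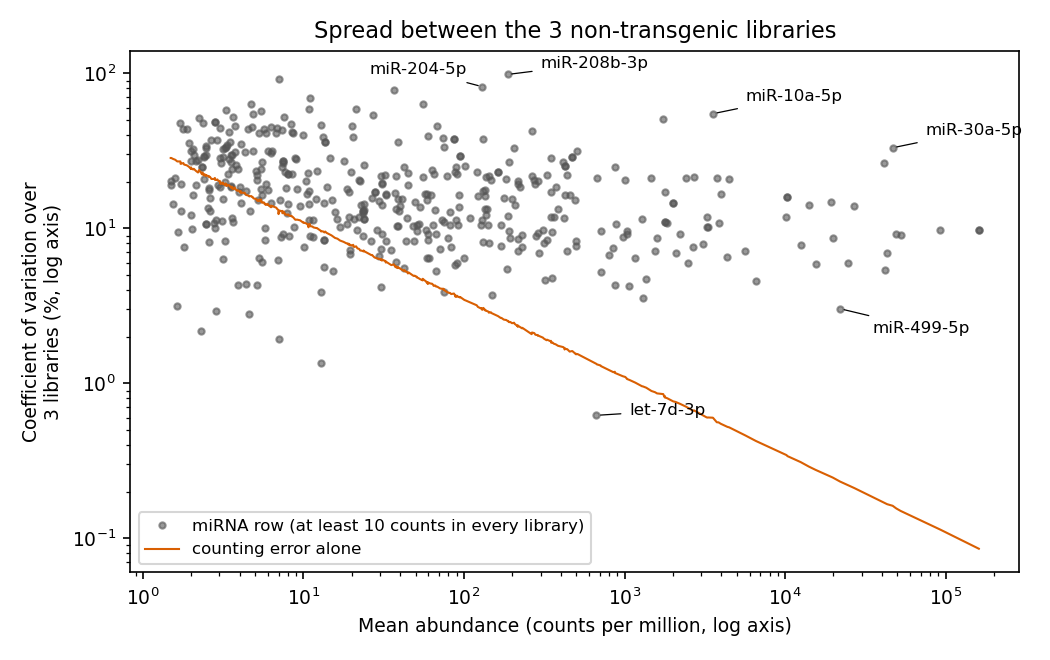
Coefficient of variation between the 3 NTG libraries (percent, log axis) against mean CPM (log axis), 1 point for each of the 443 miRNAs with at least 10 counts in every library, with the value from counting error alone as a line. Most points lie above the line (median 15.7%, against 6.27% from counting), and miR-208b-3p (98.5%) lies highest among those with at least 100 counts.

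Of the 264 miRNAs with at least 100 counts in every library, 120 varied by less than 1.25-fold between the highest and lowest library, 56 by at least 1.5-fold and 16 by at least 2-fold. The largest CV was that of miR-208b-3p at 98.5%, the values of which are given above. MiR-204-5p had 16.3, 228 and 145 CPM (82.1%). MiR-10a-5p had 5222, 4021 and 1406 CPM (55.0%) and miR-10b-5p had 2671, 1636 and 913 CPM (50.8%). Both lie in Hox gene clusters on different chromosomes, share the seed ACCCUGU and were highest in replicate 0 and lowest in replicate 2. Both strands of miR-582 were highest in replicate 2, with 229, 173 and 389 CPM for miR-582-3p and 47.2, 44.7 and 86.7 CPM for miR-582-5p. MiR-5121, miR-1291, miR-6516-3p and miR-1983 were highest in replicate 1, with CVs of 46.0% to 78.0%.

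The steadiest of these 264 miRNAs was let-7d-3p, with 667, 664 and 672 CPM (CV of 0.622%, below the 1.34% of counting alone). MiR-499-5p came next at 3.03% and was the steadiest of the abundant entries. MiR-92a-3p (3.53%), miR-28a-3p, miR-664-3p, miR-1964-3p, miR-192-5p, miR-20a-5p, miR-26b-5p and miR-125b-2-3p all had CVs between 3.53% and 4.67%. By contrast miR-30a-5p varied by 33.1% and miR-30d-5p by 26.5%. With 3 libraries a CV of a single miRNA is itself uncertain. Across all 443 miRNAs, 142 were highest in replicate 0, 207 in replicate 1 and 94 in replicate 2.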

How the data were processed

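Small-RNA libraries of mouse left ventricle were read from a deposited table of 621 miRNA entries. It holds raw counts of each library, without normalization, per the file headers. The authors' table also holds a mean normalized signal, a log2 fold change, a test score and p-values for the transgenic comparison, which the authors deposited and which are not used here. Tools named in the submitters' processing notes are Trim Galore 0.4.0, bcl2fastq 1.8.4, SAMtools, Novoalign and DESeq2 1.18.1, with the build mm10 (GRCm38). What each tool did is not given there. Nor are the counter, its treatment of strand and of reads with several places in the genome, or the source of the miRNA names. Columns of samples without a label numbered 0.

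Counts of the 3 NTG libraries were divided by the library total (7174891, 7811416 and 10132597) and multiplied by 1e+06 to give CPM. CPM ranks counted reads; no measure of molecules per cell was at hand. Shares carry exact 95% Clopper-Pearson intervals, which cover counting error only. Hairpin positions came from GENCODE M21 (614 of 621 entries matched by name) and sequences from RefSeq GRCm38.p6 (544 matched). Seed families share bases 2 to 8.

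The 5p and 3p counts of a hairpin were compared with edgeR 4.0.16 (glmQLFit and glmQLFTest, limma 3.58.1, R 4.3.3), with the library as a term and its total count as offset, two-sided, at a Benjamini-Hochberg adjusted p of 0.05. Log2 ratios used a pseudocount of 0.5. On simulated data for the 165 hairpins the test called 30.3% of 1.5-fold, 84.6% of 2-fold and 100% of 4-fold differences, and 3.51% of its calls were unchanged hairpins. The simulation used a single fixed dispersion for all hairpins and ratios of at most 4-fold. In the data the median ratio was 10.2-fold and some lower strands rested on few counts, so these rates need not hold there.

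The members, lists and rules were chosen with earlier results of these data known. The rule names the 20 most abundant miRNAs, the first 3 of each list, 15 always-named miRNAs, the 10 hairpins at each end of the strand ratio and the 10 nearest 1 (at least 100 counts of both strands in every library), and the 10 largest and 10 smallest CVs. Cluster, family and 2-hairpin members outside it were named after their values were seen. Alternatives were near-identical entries counted once, TMM and DESeq2 (1.42.0) scaling, other count minimums and pseudocounts, limma for the strands, families by name, totals without the 5 leading entries, and each library left out.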

Additional observations from a re-analysis of the deposited data

How the results depend on the processing

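No paired analysis was possible because libraries of a single group were used and no groups were compared. Leaving out each library in turn moved the share of the first 10 miRNAs between 71.0% and 72.3%, the miRNAs that hold 90% of counts between 25 and 26, the first 10 seed families between 77.4% and 78.2%, 5p calls between 85 and 86, 3p calls to 63, the median CV between 13.0% and 13.9%, and the miRNAs detected between 447 and 468. Without the 5 most abundant entries in the totals, the first 10 held 62.2%, 90% of counts took 41 miRNAs and the first 10 seed families held 73.9%. Families by the number in the name held 85.5%. The median absolute log2 strand ratio was 2.95 with a pseudocount of 5, 4.06 with at least 100 counts, 3.16 with no minimum beyond 1 count and 3.47 for hairpins of 1 copy with no near-identical entry. A minimum of 100 counts left 264 miRNAs. Limma on the log2 ratio called 86 and 65 hairpins. Of 666 values of single miRNAs and hairpins under other settings, 596 stayed within 1 SD, 70 moved beyond it and 0 changed sign. The 70 were 64 with near-identical entries counted once and 6 with the larger pseudocount. With 3 libraries, leaving out 1 cannot move a mean beyond 1 SD, and a CPM cannot change sign. For such values the tally is therefore no measure of steadiness. Counting near-identical entries once lowers the library totals and so raises the CPM of every entry kept, as given above. A larger pseudocount pulls a strand ratio towards equal strands. Depth limits entries under 1 CPM, and 3 libraries limit every SD.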

Other observations

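The table holds 18 entries, from 11 hairpins, that overlap small nucleolar RNA genes (snoRNA or scaRNA), and this group was looked at after its values were seen. Of the 17 with at least 10 counts in every library, 12 were highest in replicate 1, 4 in replicate 0 and 1 in replicate 2, whereas 46.7% of all 443 miRNAs were highest in replicate 1. The median log2 level against the mean of the 3 libraries was -0.13, 0.13 and -0.15 in replicates 0, 1 and 2 for the 17, and -0.01, 0.07 and -0.08 for all 443. MiR-5121 (26.9, 68.6 and 14.1 CPM), miR-1291 (41.5, 95.1 and 29.5 CPM) and miR-6516-3p (18.5, 35.1 and 10.3 CPM) were the most uneven of them. MiR-664-3p (74.1, 78.1 and 72.4 CPM), from another such hairpin, was among the steadiest miRNAs of the table. No test was run, since the group was formed from what was seen.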
